A study of Mus musculus with 4 samples.

Results

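Expression of 10 immediate early genes was followed in small intestinal group 3 innate lymphoid cells (ILC3s) that were sufficient or deficient in the chromatin remodeler Brg1. The genes were Nr4a1, Nr4a2, Nr4a3, Egr1, Egr2, Egr3, Ier2, Ier3, Ier5 and Myc, picked by symbol. Each symbol matched 1 gene of the 53379 in the table, and all 10 were among the 14739 genes with enough signal to be tested. Immediate early genes are transcribed within minutes of a stimulus, without new protein synthesis, and many encode transcription factors that set the later response. In lymphocytes they follow signalling through antigen receptors, calcium and MAP kinases. The Nr4a genes encode orphan nuclear receptors, the Egr genes encode zinc finger factors bound to GC-rich sites, the Ier genes encode short proteins of mixed function, and Myc drives growth and ribosome production.

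The cells came from mixed bone marrow chimeras. Marrow of Thy1.2 Rag1-/- Smarca4f/f donors and of Brg1-deficient Thy1.1Thy1.2 Rag1-/- Smarca4f/f donors, in equal cell numbers, was given together to sub-lethally irradiated Rag2-/-Il2rg-/- hosts, and ILC3s were sorted 6 to 7 weeks later. Both groups therefore lacked Rag1 and carried the floxed Smarca4 allele, and the donor cells shared a host that lacks lymphocytes of its own. The Brg1-sufficient cells were Thy1.1-, and the Brg1-deficient cells were Thy1.1+. The groups thus differed in the Thy1 allele as well as in Smarca4 deletion. There were 2 libraries per group, which the study calls biological duplicates. The number of mice behind each library is not given in the sources used here.

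The deleted gene, Smarca4, was at 17.1 and 16.7 FPKM in Brg1-sufficient cells and at 9.98 and 9.03 FPKM in Brg1-deficient cells, or 56.2% of the control mean, as a value over all its exons. Of 12 ILC3 markers all were tested, and none was at 0. Their sums were 10085 and 12405 FPKM in Brg1-sufficient cells and 23303 and 12469 FPKM in Brg1-deficient cells. FPKM is a level per transcript length and library size, so levels of different genes can be compared. The sorted FPKM values were nearly the same in every library (99.0% of the 13693 ranks with a mean above 1 FPKM differed by under 1%), so a gene's value was set by its rank, and any difference in total RNA between groups has been removed. Read counts were not used here and depth is unknown.

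The promoters of the genes below are shown because immediate early genes are switched on through short elements next to their start sites. The core of the cyclic AMP response element (CRE), spelled TGACG on either strand, binds CREB family factors, and the CArG box binds serum response factor. RefSeq windows of 300 bases (250 before and 50 after each start, GRCm38.p6) were matched for 6 of the 10 genes: Nr4a1, Nr4a2, Nr4a3, Egr2, Ier3 and Ier5. The 150 bases before 1 annotated start each are printed 5′ to 3′ for Nr4a1 (chr15:101266696-101266845, plus strand), Nr4a2 (chr2:57124004-57124153, minus strand) and Egr2 (chr10:67537719-67537868, plus strand), with CRE cores and CArG boxes in capitals.
Nr4a1: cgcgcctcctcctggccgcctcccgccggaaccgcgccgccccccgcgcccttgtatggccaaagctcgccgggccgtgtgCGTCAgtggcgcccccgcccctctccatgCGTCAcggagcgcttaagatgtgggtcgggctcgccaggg
Nr4a2: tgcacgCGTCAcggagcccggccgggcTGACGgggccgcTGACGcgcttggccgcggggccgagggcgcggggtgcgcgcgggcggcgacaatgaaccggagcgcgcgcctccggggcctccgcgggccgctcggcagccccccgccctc
Egr2: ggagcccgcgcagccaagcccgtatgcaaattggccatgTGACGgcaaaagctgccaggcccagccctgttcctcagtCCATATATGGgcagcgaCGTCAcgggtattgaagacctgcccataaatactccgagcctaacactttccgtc

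A gene was counted when any of its windows matched. The 6 genes had 10 windows, several of them of Egr2, and the 27025 genes with a window had 32851. Egr2 thus had more sequence to match than most genes. The CRE core was in a window of 4 of the 6 genes, Nr4a1, Nr4a2, Nr4a3 and Egr2, and in 23.0% of all genes with a window. Each of the 3 Nr4a windows held it at 4 places. The full palindrome TGACGTCA, which holds the core on both strands, was in none of the 6 and in 2.03% of all genes. The CArG box was in windows of Egr2 alone among the 6, and in 1.81% of all genes. The TATA box letters TATAAA were found for Nr4a2 (15.7% of all genes) and the E-box letters CACGTG, which Myc with Max can bind, for Egr2 (8.09%). An NF-kB site was in windows of Nr4a1, Egr2 and Ier3 (9.55%). The Nr4a monomer site AAAGGTCA, the Egr site GCGTGGGCG and the AP-1 site TGANTCA were in none of the 6, and in 1.70%, 0.707% and 8.97% of all genes. Of 40 other immediate early genes, 34 had a window, and 22 of those (64.7%) held the CRE core. These are matches of letters within the windows and do not show binding.

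Across both groups, 3 of the 10 genes were among the most abundant mRNAs of the cells, and the other 7 were at 70.2 FPKM or lower. Nr4a1, Egr1 and Ier2 made up between 96.4% and 97.3% of the summed FPKM of the 10 genes in each library. The ranks among all genes of a library were 40 to 49 for Nr4a1, 46 to 62 for Egr1 and 93 to 129 for Ier2. Only 129 of the 53379 genes (0.242%) were above 500 FPKM in all 4 libraries, and these 3 were among them. So were 17 of 40 other immediate early genes, Fos, Jun, Junb and Nfkbia included. Immediate early genes respond to tissue handling as well as to signals in the tissue, and these cells were released by enzymatic digestion and sorted before lysis. A library of cells lysed without these steps was not analysed here, so the part of handling in the levels was not tested.

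**Figure D1:**
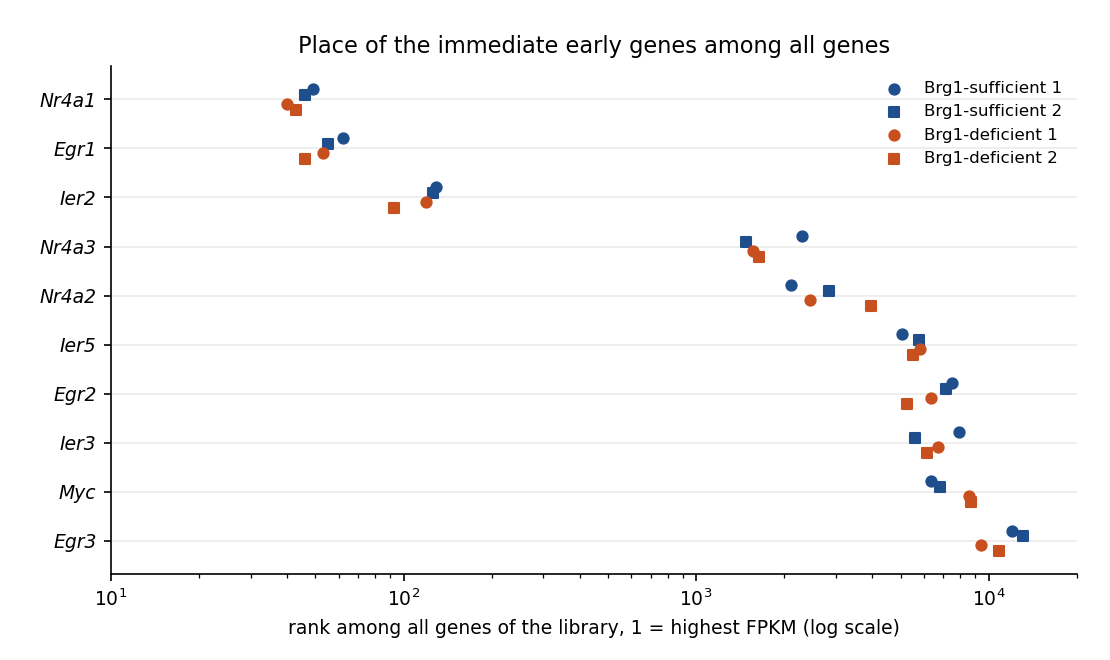
Rank of each gene among all genes of its library (log axis, 1 is the highest FPKM), with 1 point for each of the 2 Brg1-sufficient (blue) and 2 Brg1-deficient (orange) libraries. Nr4a1, Egr1 and Ier2 lie between rank 40 and rank 129 in every library, and the next gene, Nr4a3, lies at rank 1483 at the highest.

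In Brg1-sufficient cells the order of mean levels was Nr4a1, Egr1, Ier2, Nr4a3, Nr4a2, Ier5, Ier3, Myc, Egr2 and Egr3. The libraries of Nr4a1, Egr1 and Ier2 did not overlap with each other. Nr4a3 and Nr4a2 overlapped, as did Ier5 with Ier3 and Ier3 with Myc, so their order was within the spread of 2 libraries. In Brg1-deficient cells the first 6 places were the same. Egr2 was above Ier3 there, with overlap, and Myc was 9th in both libraries, below Egr2 without overlap. Egr3 was last in all 4 libraries.

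Between the groups, limma called none of the 10 genes at an adjusted p of 0.05 (Benjamini-Hochberg, over all 14739 genes). Smarca4, the deleted gene, did not pass this limit either (log2 fold change -0.77, adjusted p = 0.153 from limma). That limit was passed by 33 genes (0.224%) with lower and 12 (0.0814%) with higher levels in Brg1-deficient cells. At an unadjusted p under 0.05, 1 of the 10 was lower (Myc) and 1 was higher (Egr2), where 6.47% and 6.12% of all genes were. In 5 genes, Nr4a1, Egr1, Egr2, Egr3 and Ier2, both Brg1-deficient libraries were above both controls, as in 24.4% of all genes. Myc was the 1 gene with both below, as were 20.2% of all genes. The median log2 fold change of the 10 genes was 0.21 and that of all genes tested was 0.03. For 1 gene on its own, 2 libraries a group allow no two-sided exact permutation p smaller than 0.333.

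**Figure D2:**
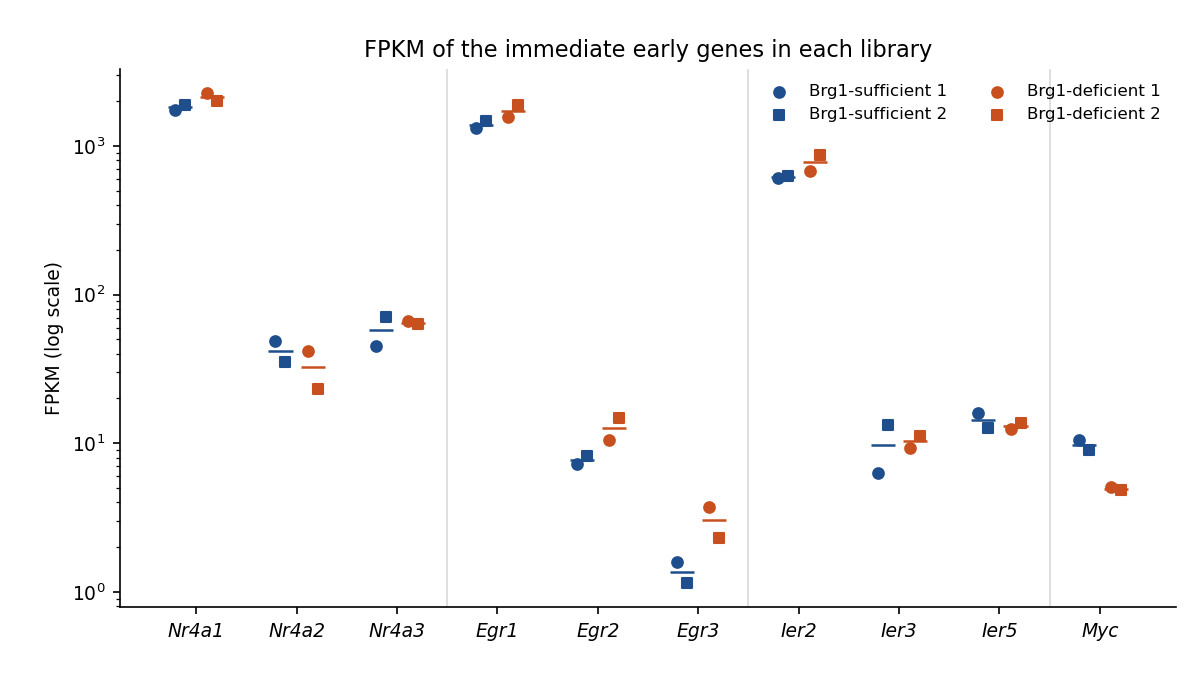
FPKM (log axis) of each gene in the 4 libraries, with horizontal lines at the group means. Brg1-sufficient and Brg1-deficient points are apart in 6 genes, with the Brg1-deficient points higher for Nr4a1, Egr1, Egr2, Egr3 and Ier2 and lower for Myc.

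Myc, the basic helix-loop-helix factor that promotes growth and cell cycle entry, showed the largest difference of the 10 on the log2(FPKM + 1) scale. It was at 10.5 and 8.97 FPKM in Brg1-sufficient cells and 5.04 and 4.83 FPKM in Brg1-deficient cells. Both Brg1-deficient values were well below both controls, and replicates lay close together in each group. The Brg1-deficient mean, 4.94 ± 0.148 FPKM (SD, n = 2), was 50.7% of the Brg1-sufficient mean of 9.73 ± 1.07 FPKM (SD, n = 2). The log2 fold change was -0.85, with a standard error of 0.190, a 95% interval from -1.33 to -0.37 and an adjusted p of 0.171 from limma (0.00548 before adjustment). The gap was larger than the spread between replicates, but the adjusted p did not pass the limit. Without each library in turn it stayed between -0.95 and -0.75. Myc (ENSMUSG00000022346) lies on chromosome 15 of GRCm38 from 61985391 to 61990374, on the plus strand, in GENCODE M21.

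By the distance of centred log2 values over the 4 libraries, the genes most like Myc among 9086 with a mean above 5 FPKM were Tiam2, Vopp1 and P2ry14, at distances of 0.0229, 0.0342 and 0.0559. Tiam2 went from a mean of 30.8 to 16.6 FPKM, Vopp1 from 7.68 to 3.79 FPKM and P2ry14 from 6.13 to 2.94 FPKM. With 4 libraries, near matches to any gene are many, and this is a description.

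All 3 Egr genes had higher values in Brg1-deficient cells, and the difference was larger on the log2 scale in the 2 genes of low level. Egr2, which in T cells takes part in limiting activation, was at 7.22 and 8.15 FPKM in Brg1-sufficient cells and 10.4 and 14.8 FPKM in Brg1-deficient cells. The groups did not overlap, and Brg1-deficient library 2 was highest. The log2 fold change was 0.63 (standard error 0.225, 95% interval 0.07 to 1.2, unadjusted p = 0.0341 and adjusted p = 0.347 from limma), with a Brg1-deficient mean of 164% of the control mean. It ranged from 0.40 to 0.87 when a library was left out.

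Egr3, its close relative, was the lowest of the 10, at 1.58 and 1.15 FPKM in Brg1-sufficient cells and 3.73 and 2.31 FPKM in Brg1-deficient cells. The groups were apart, and both passed the filter of 1 FPKM. The log2 fold change was 0.75 on log2(FPKM + 1), a scale that understates changes at such levels (95% interval -0.04 to 1.54, adjusted p = 0.419 from limma), and the Brg1-deficient mean was 221% of the control mean. With log2(FPKM + 0.1) the log2 fold change was 1.07.

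Egr1, the most rapidly induced of the family in many cells, was at 1312 and 1465 FPKM in Brg1-sufficient cells and 1557 and 1897 FPKM in Brg1-deficient cells. The nearest values of the groups, 1465 and 1557 FPKM, were closer than replicates were within either group. Its log2 fold change was 0.31 (95% interval -0.11 to 0.73, adjusted p = 0.517 from limma). In each library Egr1 was between 128 and 182 times as high as Egr2 per length of transcript.

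Among the Nr4a receptors the 95% intervals of all 3 genes included 0, and the groups were apart in Nr4a1 alone. Nr4a1, which encodes Nur77 and follows antigen receptor signal strength in T cells, was at 1742 and 1897 FPKM in Brg1-sufficient cells and 2255 and 1992 FPKM in Brg1-deficient cells. The Brg1-deficient values were higher, by 3 to 9 places in the ranking of all genes. Its log2 fold change was 0.22 (95% interval -0.16 to 0.60, adjusted p = 0.605 from limma), so at this number of libraries a difference could not be told from the spread.

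Nr4a2, which encodes Nurr1, was at 48.7 and 35.3 FPKM in Brg1-sufficient cells and 41.9 and 23.3 FPKM in Brg1-deficient cells. The groups overlapped, and the low mean of Brg1-deficient cells came from their library 2. The log2 fold change was -0.39 (95% interval -1.19 to 0.40, adjusted p = 0.641 from limma) and 0.016 without that library. Nr4a3, which encodes Nor1, was at 44.8 and 70.2 FPKM in Brg1-sufficient cells, with both Brg1-deficient libraries, at 66.1 and 63.1 FPKM, between them. Its log2 fold change was 0.20 (95% interval -0.39 to 0.79, adjusted p = 0.759 from limma). Nr4a1 was 27.0 to 38.8 times as high as Nr4a3 and 35.8 to 85.4 times as high as Nr4a2 in the same library.

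The Ier genes were split in the same way between 1 abundant gene and 2 of low level. Ier2, a short nuclear protein induced by growth factors, was at 613 and 630 FPKM in Brg1-sufficient cells and 675 and 874 FPKM in Brg1-deficient cells. The groups did not overlap, and library 2 of the Brg1-deficient group lay far above the other 3. For Ier2 the log2 fold change was 0.31 (95% interval -0.12 to 0.73, adjusted p = 0.534 from limma) and was 0.12 without that library. Ier3, a regulator of survival downstream of NF-kB and MAP kinases, was at 6.26 and 13.3 FPKM in Brg1-sufficient cells, with 9.28 and 11.2 FPKM of the Brg1-deficient libraries between them. Controls differed by 2.12 times, the widest gap within a group among the 10 genes.

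Ier5, a cofactor of the heat shock factor Hsf1, was at 16.1 and 12.6 FPKM in Brg1-sufficient cells and 12.4 and 13.8 FPKM in Brg1-deficient cells, with overlap. The log2 fold changes of Ier3 and Ier5 were 0.14 and -0.12. Their 95% intervals, -0.74 to 1.02 and -0.59 to 0.36, leave room for differences in either direction.

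**Figure D3:**
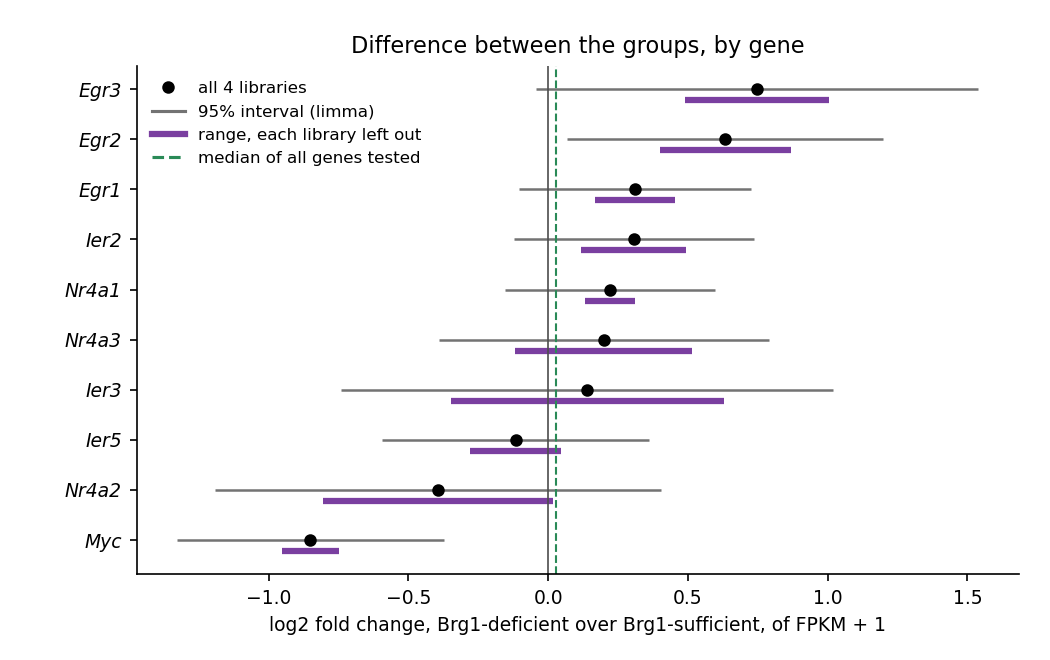
Log2 fold change of FPKM + 1, Brg1-deficient over Brg1-sufficient, for each gene (points), with the 95% interval from limma (grey), the range when each library is left out in turn (purple) and the median of all genes tested (green dashes). The intervals of Myc and Egr2 lie on 1 side of 0, and the ranges of Nr4a2, Nr4a3, Ier3 and Ier5 cross it.

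Replicates of the 10 genes were about as far apart as those of other genes. The median gap between replicates on the log2(FPKM + 1) scale was 0.23 in Brg1-sufficient and 0.27 in Brg1-deficient libraries for the 10 genes, and 0.30 and 0.20 for all genes tested. Summed over the 3 Egr genes, the levels were 1321 and 1474 FPKM in Brg1-sufficient cells and 1571 and 1914 FPKM in Brg1-deficient cells, mostly from Egr1. Summed over the 3 Nr4a genes they were 1835 and 2002 against 2363 and 2078 FPKM, mostly from Nr4a1.

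Myc works as a dimer with Max, and the Mxd, Mnt and Mga proteins compete for Max. Of 11 genes of this network 9 were tested. None had an adjusted p under 0.05 from limma, and 1 was lower at an unadjusted p under 0.05, as were 6.47% of all genes tested. This was Mxd1, a repressor that opposes Myc, at 101 and 114 FPKM in Brg1-sufficient cells and 69.3 and 61.9 FPKM in Brg1-deficient cells (log2 fold change -0.70, adjusted p = 0.153 from limma). Mycn, a paralog of Myc, was at 9.96 and 11.4 FPKM in Brg1-sufficient cells, a level like that of Myc, and at 7.76 and 9.81 FPKM in Brg1-deficient cells. Mga, another Max partner, was at 20.6 and 15.8 FPKM in Brg1-sufficient cells and 13.2 and 14.5 FPKM in Brg1-deficient cells. The median log2 fold change of the 9 genes was -0.26.

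Of 20 genes taken as targets of Myc in ribosome production and growth, all were tested, and none passed after adjustment. At an unadjusted p under 0.05, 1 was lower (Odc1) and 3 were higher (Ccnd2, Dkc1 and Nolc1), beside 6.47% and 6.12% of all genes tested. Odc1, the first enzyme of polyamine synthesis, was at 424 and 266 FPKM in Brg1-sufficient cells and 163 and 146 FPKM in Brg1-deficient cells (log2 fold change -1.12, adjusted p = 0.163 from limma). Ccnd2, a D-type cyclin, was at 168 and 161 FPKM in Brg1-sufficient cells and at 242 and 261 FPKM in Brg1-deficient cells (log2 fold change 0.61, adjusted p = 0.153). Ppan, a ribosome assembly factor, was at 13.7 and 16.7 FPKM in Brg1-sufficient cells and 22.4 and 19.5 FPKM in Brg1-deficient cells. Its unadjusted p from limma was 0.0563. The median over the 20 genes was 0.12, against 0.03 for all genes tested and -0.85 for Myc itself.

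The Egr proteins are held back by the corepressors Nab1 and Nab2, and Nr4a1 and Nr4a2 can pair with RXR. Of Nab1, Nab2, Rxra and Rxrb, 3 were tested and none had an unadjusted p under 0.05. Nab2, itself a target of Egr factors, was at 4.84 and 5.88 FPKM in Brg1-sufficient cells and at 4.33 and 3.98 FPKM in Brg1-deficient cells. Rxra was under 1 FPKM in every library.

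Of 15 genes tied to Egr2, Egr3 or Nr4a in T cells 13 were tested, and in Brg1-deficient cells 9 of them had lower and 4 had higher values. Groups did not overlap in 7 of the lower and 3 of the higher genes, beside 20.2% and 24.4% of all genes tested. At an unadjusted p under 0.05, 6 were lower and none was higher, beside 6.47% and 6.12% of all genes tested. None passed after adjustment by limma, and the median log2 fold change was -0.42. Lag3, an inhibitory receptor, was at 13.17 and 18.03 FPKM in Brg1-sufficient cells and 3.04 and 2.25 FPKM in Brg1-deficient cells (log2 fold change -2.18, adjusted p = 0.0548). Ndrg1 was at 18.9 and 30.3 FPKM in Brg1-sufficient cells and at 6.24 and 5.52 FPKM in Brg1-deficient cells (log2 fold change -1.86, adjusted p = 0.0819). Rnf128, the ubiquitin ligase GRAIL, was at 35.0 and 15.5 FPKM against 8.99 and 5.92 FPKM (log2 fold change -1.55, adjusted p = 0.228). The 3 genes with higher values and no overlap were Dgka, Itch and Havcr2, named after their values were seen. Dgka, a diacylglycerol kinase that dampens T cell receptor signals, was at 23.1 and 22.1 FPKM in Brg1-sufficient cells and 27.4 and 32.9 FPKM in Brg1-deficient cells.

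Among 40 other immediate early genes, 39 were tested, and none passed after adjustment by limma. At an unadjusted p under 0.05, 6 were lower and 5 were higher, beside 6.47% and 6.12% of all genes tested. Ptgs2, the inducible cyclooxygenase, was at 57.2 and 37.1 FPKM in Brg1-sufficient cells and 10.2 and 9.90 FPKM in Brg1-deficient cells (log2 fold change -2.09, adjusted p = 0.0572). Plk2, a kinase, was at 24.8 and 18.4 FPKM against 12.1 and 11.5 FPKM. Bhlhe40, a transcriptional repressor, was at 1293 and 1121 FPKM against 767 and 687 FPKM. In the other direction, Cd69, an early activation antigen, was at 1046 and 1055 FPKM in Brg1-sufficient cells and 1602 and 1742 FPKM in Brg1-deficient cells (log2 fold change 0.67, adjusted p = 0.143 from limma). Nfkbia, the NF-kB inhibitor, was at 4831 and 4924 FPKM against 6828 and 7210 FPKM. By sign 16 of the 39 were lower and 23 higher, and groups did not overlap in 11 and 15 of these. Over all genes tested, groups did not overlap in 20.2% (lower) and 24.4% (higher). The median of the list, 0.16, was close to that of the 10 genes, 0.21. Of 15 factors that act upstream on immediate early promoters, Srf, Creb1 and the Nfat genes included, 1 was lower at an unadjusted p under 0.05. It was Mef2c, at 25.0 and 26.2 FPKM in Brg1-sufficient cells and at 19.5 and 14.7 FPKM in Brg1-deficient cells. Mkl1, a cofactor of serum response factor, and Atf1, a relative of CREB, had log2 fold changes of 0.48 and -0.29 (adjusted p = 0.423 and 0.505 from limma). Srf was between 3.28 and 3.40 FPKM in every library.

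**Figure D4:**
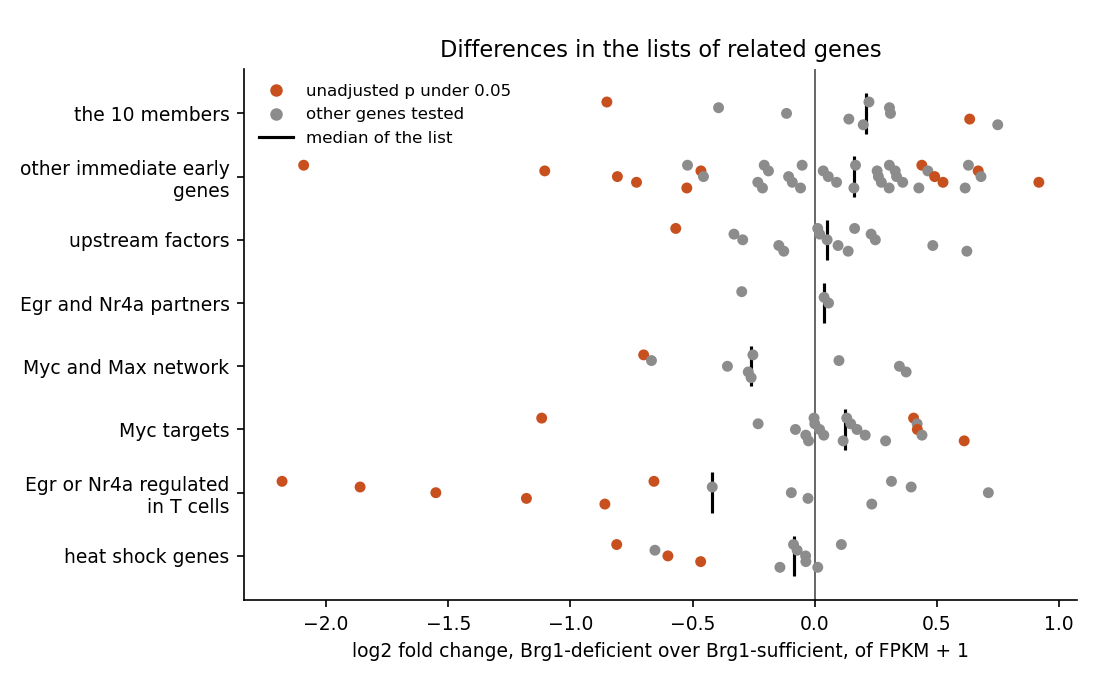
Log2 fold change of FPKM + 1, Brg1-deficient over Brg1-sufficient, for each gene tested of the 10 members and of 7 lists of related genes (orange points for an unadjusted p under 0.05, grey for the others), with the median of each list as a black line. Medians lie between -0.42 for genes tied to Egr or Nr4a in T cells and 0.21 for the 10 members.

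Markers of other lymphocytes moved with the groups, and fewer cells of a type and less RNA per cell cannot be told apart in these bulk libraries. Of 8 ILC2 markers 7 were tested, and all 7 had lower values without overlap, as did 20.2% of all genes tested. Sums of the ILC2 markers were 201 to 363 FPKM in Brg1-sufficient and 95.1 to 121 FPKM in Brg1-deficient libraries. Of 7 T cell markers 5 were tested and all 5 had a negative log2 fold change, as did 6860 of the 14739 genes tested. In 3 of the 5 the groups did not overlap. Trac, at 33.6 and 4.86 FPKM against 5.08 and 12.5 FPKM, was lower through Brg1-sufficient library 1 alone. Sums of the T cell markers were 27.0 to 91.4 FPKM against 9.70 to 25.6 FPKM. Brg1-sufficient library 1 held the highest sum of both lists, and for T cell markers library 2, at 27.0 FPKM, was close to Brg1-deficient library 2, at 25.6 FPKM. Among ILC2 markers the same library stood apart for Ccr8, at 51.7 FPKM against 8.41 FPKM in library 2. Il13, too low to be tested, was at 1.04 and 0.5 FPKM in Brg1-sufficient cells and at 0 in both Brg1-deficient libraries. Without Brg1-sufficient library 1 the log2 fold change of Myc was -0.75. That fit kept Brg1-sufficient library 2, in which all 7 tested ILC2 markers were also above both Brg1-deficient libraries. Ccr8, at 8.41 FPKM in that library, was at 0.23 and 0.24 FPKM in Brg1-deficient cells. The fit is therefore no test of the part of these markers in the value of Myc. Of 8 markers of NK cells and ILC1s 7 were tested and 6 had lower values, 4 of them without overlap. The sums were 182 to 356 FPKM against 274 to 487 FPKM. The exception was Gzma, a granzyme, at 50.8 and 103 FPKM in Brg1-sufficient cells and 397 and 218 FPKM in Brg1-deficient cells, which makes up most of the latter sums. Ncr1, which marks a subset of ILC3s as well, was at 31.3 and 35.5 FPKM against 5.37 and 6.02 FPKM (adjusted p = 0.0330 from limma), and Ifng was lower as well (adjusted p = 0.0386). The single B cell marker tested of 5, Cd79b, was also lower (adjusted p = 0.0386). No marker of these lists was at 0 in all libraries. Their part in the values of Myc and of Lag3, Ndrg1 and Rnf128 was not tested.

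Myeloid sums were 101 to 228 FPKM against 76.0 to 212 FPKM, and mast cell sums 8.68 to 10.8 against 6.48 to 6.79. Epithelial sums were 2.24 to 2.68 against 3.36 to 4.13, and stromal sums 65.1 to 90.1 against 66.8 to 68.2 FPKM. Lyz2 made up most of the myeloid sums, at 84.1 and 203 FPKM in Brg1-sufficient cells and 64.4 and 192 FPKM in Brg1-deficient cells. Pecam1 made up most of the stromal sums, at 62.25 and 87.9 FPKM against 65.7 and 64.0 FPKM. Heat shock genes respond to handling. At an unadjusted p under 0.05, 3 of the 11 were lower (Hspa1a, Hspa1b and Dnajb1) and none was higher, beside 6.47% and 6.12% of all genes tested. The median log2 fold change of the 11 was -0.09, and by sign 9 were lower and 2 higher. Hspa1a, an inducible chaperone, was at 4262 and 4652 FPKM in Brg1-sufficient cells and at 2606 and 3306 FPKM in Brg1-deficient cells. Hspa1b and Hspb1 had log2 fold changes of -0.81 and -0.65 (adjusted p = 0.266 and 0.456 from limma). Whether handling differed between the groups was not tested.

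The other members lie, on GRCm38 in GENCODE M21, as follows. Nr4a1 (ENSMUSG00000023034) is on chromosome 15 from 101254269 to 101274795, Nr4a2 (ENSMUSG00000026826) on chromosome 2 from 57106830 to 57124003, and Nr4a3 (ENSMUSG00000028341) on chromosome 4 from 48045153 to 48086447. Egr2 (ENSMUSG00000037868) is on chromosome 10 from 67535475 to 67542188 and Egr3 (ENSMUSG00000033730) on chromosome 14 from 70077203 to 70082614. Egr1 (ENSMUSG00000038418) is on chromosome 18 from 34859823 to 34864984. Ier2 (ENSMUSG00000053560) is on chromosome 8 from 84661331 to 84662852, Ier3 (ENSMUSG00000003541) on chromosome 17 from 35821684 to 35822923, and Ier5 (ENSMUSG00000056708) on chromosome 1 from 155096361 to 155099636. Ier2 and Ier5 have a single exon, and no member overlaps another annotated gene.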

How the data were processed

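RNA from 4 libraries of sorted small intestinal ILC3s was analysed. The authors mapped single-end reads to GRCm38.p5 with STAR 2.5, quantified genes with RSEM 1.2 on GENCODE M16, and deposited 1 FPKM value per gene and library. Their distributions had been made equal, a step not given in the sources used here. The authors tested differential expression with edgeR. Read counts were not used here.

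Groups came from the sample titles. Genes with a mean above 1 FPKM in either group were tested on log2(FPKM + 1) with limma 3.58.1 (lmFit, eBayes with a trend) in R 4.3.3, with Benjamini-Hochberg adjustment over all of them. Scripts were tested on simulated data. Members and lists were chosen with earlier results of these data known. Lists of T cell and Myc targets were set from general knowledge. Named genes were all members, Smarca4, genes of the lists with an adjusted p under 0.05, from each list the 3 with the largest fold change without overlap and with a mean above 5 FPKM in either group, and genes most like the member with the largest fold change. Marker lists are otherwise given as sums. Cd69, Nfkbia, Gzma, Dgka, Lyz2, Pecam1, Dnajb1, Dkc1, Nolc1, Trac and those given for a level alone were added after their values were seen. Alternatives were another pseudocount, filters, protein-coding genes only, quantile normalization, no trend, the replicate number as a block, and leaving out each library. P-values measure the spread between these libraries. An element of the donor genotype is not reported here.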

Additional observations from a re-analysis of the deposited data

How the results depend on the processing

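None of the 10 genes had an adjusted p under 0.05 in limma under any alternative run. The lowest was 0.0818 for Myc with protein-coding genes only. At an unadjusted p under 0.05 there were 2, and 2 to 3 under the alternatives that kept all libraries. Leaving out a library gave 0 to 2. Without 1 library at a time the sign changed in 4 genes. The log2 fold change ranged from -0.35 to 0.63 for Ier3, from -0.12 to 0.52 for Nr4a3 and from -0.28 to 0.047 for Ier5, each changing sign without Brg1-sufficient library 1, and from -0.80 to 0.016 for Nr4a2, which changed sign without Brg1-deficient library 2. The other 6 kept their sign in each alternative run on them, as the separation of their groups fixes.

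Over all genes, 33 lower and 12 higher genes became 73 and 41 with a mean above 5 FPKM, 213 and 138 with protein-coding genes only, and 0 and 0 when low genes were kept, with no filter on FPKM (1400 and 1308 at an unadjusted p under 0.05) or with limma without trend (965 and 903). Each fit without 1 library gave 0 and 0, with between 507 and 1675 lower and between 735 and 1507 higher genes at an unadjusted p under 0.05, and it assumes that a lone library varies like the others. Blocking on replicate number (replicate block) raised them to 248 and 150. Cells of both donors shared hosts, so pairs of libraries by host are possible, but nothing in the labels pairs them. Deviations of same-numbered libraries had a correlation of -0.00037 across genes. A single value over all genes cannot settle whether libraries were paired. The block changed no call among the 10 genes. Of the genes in the pathway lists, 0 were called, and 3 with a mean above 5 FPKM, 4 with protein-coding genes only and 5 with the replicate block, Ptgs2, Lag3 and Ndrg1 in each. The cause of these shifts was not tested beyond the number of genes and libraries. Depth is unknown, so counting error at low levels such as those of Egr3 was not assessed.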

Other observations

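Equal distributions tie the values of abundant genes to their places. The same FPKM, 1897, was listed for Nr4a1 in Brg1-sufficient library 2, Egr1 in Brg1-deficient library 2, Rgs1 in Brg1-deficient library 1 and Dgat1 in Brg1-sufficient library 1, and each was at rank 46 in its library. For Nr4a1 the groups were separated by ranks 43 and 46, the nearest of each, so its separation rests on 3 places among 53379 genes. Dusp1, another immediate early gene, was listed at 1602 FPKM in 3 of 4 libraries and at 1190 FPKM in Brg1-deficient library 1.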
